A study of Mus musculus with 12 samples.

Results

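The genes described are those of the constitutive 26S proteasome and of its activators, read out in pancreatic stellate cells (PSCs) of the mouse. They were taken from the count table by symbol, as every gene named *Psma*, *Psmb*, *Psmc* or *Psmd* with a number and *Psme1* to *Psme4*, without the immunoproteasome genes *Psmb8*, *Psmb9* and *Psmb10*. This gave 40 of 39179 genes, of which 16 encode the 20S core, 17 the 19S regulatory cap, 3 chaperones that assemble the cap and 4 the activators. PSCs are fibroblast-like cells of the pancreas, and those used here were 1 clone, immortalised with SV40, labelled as of the C57BL/6 strain and marked with mCherry. All 12 cultures were kept for 72 h in medium with little serum at the same total number of cells, so that PSCs alone and PSCs in co-culture were plated in different numbers. The PSCs grew alone (mono-PSCs), with the EGFP-marked tumour cell line PCC (2W-PSCs), or with PCCs and TagBFP-marked macrophages (MØs, 3W-PSCs). PCC is a mouse pancreatic cancer cell line, and the MØs were the line RAW264.7. Each culture was run as 4 replicates, cells with mCherry and without EGFP and TagBFP were sorted as PSCs, and the RNA near the 3′ end of each transcript was sequenced. The labels do not say whether the replicates were cultures of different days, so p-values measure the spread between these libraries, which may be technical.

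The proteasome is the large protease that degrades most short-lived and damaged proteins of a cell after they have been tagged with ubiquitin. Its 20S core is a barrel of stacked rings of α and β subunits, and the cutting sites lie inside, on the β subunits encoded by *Psmb5*, *Psmb6* and *Psmb7*. The 19S cap sits on the end of the barrel, where its lid and ubiquitin receptors bind and strip the tagged protein and its ring of ATPases, encoded by the *Psmc* genes, unfolds it and threads it in. The activators are other caps that open the barrel without ubiquitin, PA28αβ (*Psme1* and *Psme2*), PA28γ (*Psme3*) and PA200 (*Psme4*). In cells exposed to interferon, *Psmb8*, *Psmb9* and *Psmb10* encode replacements for the 3 cutting subunits, and the resulting immunoproteasome favours peptides that fit MHC class I.

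Total counts per library ranged from 4561817 to 8093368, and levels are given as CPM, the counts of a gene relative to its library size after TMM scaling. The kit yields about 1 fragment per transcript, so CPM of different genes can be compared without a correction for length. Replicate 2 of 2W-PSCs had the lowest total of the 12 libraries and the fewest genes with 10 counts or more (10363). Of the 38 proteasome genes tested, it was the lowest of its culture for 17 and the highest for 13. Several results below are also given without it. Stellate cell genes were abundant in every library (10 markers summing to 4811 to 9014 CPM), whereas *Des* stayed between 0.232 and 3.32 CPM and *Fap* between 0 and 6.73 CPM. Summed over 12 macrophage markers, the libraries had 10.1 to 13.3 CPM (mono-PSCs), 12.3 to 17.5 CPM (2W-PSCs) and 30.9 to 67.7 CPM (3W-PSCs), with *Emr1* and *Lyz1* at 0 counts in all 12 libraries. *Ptprc*, *Tyrobp* and *Laptm5* had 0 counts in every mono-PSC and 2W-PSC library and up to 20, 22 and 75 counts in 3W-PSCs. In 3W-PSCs *Cd14* had 20.2 to 25.1 CPM and *Lyz2* 0.813 to 13.9 CPM, against at most 13.2 and 4.95 CPM elsewhere. *Csf1r* peaked in 2W-PSCs, at 6.88 CPM against 3.13 CPM in 3W-PSCs. The 12 epithelial markers summed to 0.601 to 2.43 CPM (mono-PSCs), 77.9 to 150.3 CPM (2W-PSCs) and 56.5 to 96.4 CPM (3W-PSCs), with *Cldn4* at 0 counts in all 12 libraries. Between 3W-PSCs and 2W-PSCs, 1 of 4 macrophage markers and 1 of 8 epithelial markers tested were called, all higher, and of 9 stellate cell markers 2 were higher and 4 lower. Against mono-PSCs, 2 of 4 macrophage and 7 of 7 epithelial markers were higher in 3W-PSCs, and 5 of 5 epithelial markers were higher in 2W-PSCs. The sort on EGFP and TagBFP was meant to remove tumour cells and MØs, and the part of such RNA in the results below was not tested. In these sorted populations, a smaller number of cells with a transcript and less of it per cell cannot be told apart.

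PSCs expressed 38 of the 40 genes in all 12 libraries, with at least 36 counts in each. *Psma8*, known as a testis subunit, had 0 counts in every library, which allows up to 3 counts, or 0.737 CPM in the smallest library. *Psmb11*, which encodes the thymus form of the chymotrypsin-like subunit, had 4 counts in replicate 1 and 2 counts in replicate 2 of 3W-PSCs and none elsewhere. Both were too low to be tested. Among the other 38, the mean level over 12 libraries was highest for *Psma7* (584 CPM), followed by *Psmb4* (551), *Psmc1* (526), *Psmd4* (490.3) and *Psmd7* (484). It was lowest for *Psmb5* (31.9 CPM), then *Psmd5* (34.3), *Psme3* (46.7), *Psma5* (53.5) and *Psme2* (53.8). Although a core holds its 7 kinds of α and 7 kinds of β subunit in equal numbers, the tags of these 14 genes spanned 18.3-fold, with a median of 205.6 CPM. Cap ATPases spanned 6.65-fold, lid subunits 4.61-fold and activators 3.67-fold. *Psmb5*, *Psme2* and *Psma5* stand among the low genes, and they also share 42.5%, 45.1% and 40.6% of the 75-base windows in the last 500 bases of their transcript with other genes or pseudogenes, where reads may be lost or counted elsewhere. *Psmd1* shares 54.2% and *Psmb3* 38.5% in the same way.

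Promoters were read for the 33 of 40 genes present in the set of RefSeq promoters used (GRCm38.p6), from 250 bases before to 50 after the start. *Psma8*, *Psmb1*, *Psmb2*, *Psmb7*, *Psmc3*, *Psmd3* and *Psmd7* were not in that set and were not examined. The 4 stretches below are those of the cutting subunits *Psmb6* and *Psmb5*, the activator *Psme1* and the assembly chaperone *Psmd10*. All were called in 3W-PSCs against mono-PSCs, *Psmb5* in only 4 of 16 alternative settings. Against 2W-PSCs, *Psmb5* and *Psme1* were not called. Each line runs from 120 bases before the start to 30 after it. Capitals mark TGACNNNGC, the element bound by the proteasome regulators NFE2L1 and NFE2L2, the element of interferon regulatory factors (GAAA, any 2 bases, GAAA), TTCNNNGAA, the STAT element, and CCAAT, each searched on both strands.
Psmb6, chr11:70525237-70525386, plus strand: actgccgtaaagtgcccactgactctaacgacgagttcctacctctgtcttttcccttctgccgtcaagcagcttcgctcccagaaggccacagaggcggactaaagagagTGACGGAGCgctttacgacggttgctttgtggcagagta
Psmb5, chr14:54617966-54618115, minus strand: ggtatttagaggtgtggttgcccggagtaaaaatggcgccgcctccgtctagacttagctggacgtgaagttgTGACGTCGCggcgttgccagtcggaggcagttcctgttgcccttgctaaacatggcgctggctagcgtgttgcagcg
Psme1, chr14:55578374-55578523, plus strand: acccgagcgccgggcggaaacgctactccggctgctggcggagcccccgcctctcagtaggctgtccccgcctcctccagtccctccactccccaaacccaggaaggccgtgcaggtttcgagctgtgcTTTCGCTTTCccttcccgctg
Psmd10, chrX:140956682-140956831, minus strand: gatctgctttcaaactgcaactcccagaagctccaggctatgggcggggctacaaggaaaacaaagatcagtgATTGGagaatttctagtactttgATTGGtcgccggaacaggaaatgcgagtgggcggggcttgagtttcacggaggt
Over the full windows, TGACNNNGC occurred in 6 of the 33 promoters (*Psmb5*, *Psmb6*, *Psmc6*, *Psmd12*, *Psmd9* and *Psme4*), 18.2%, against 12.5% of 27025 promoters of the genome. The interferon regulatory factor element occurred in 4 (*Psmb3*, *Psmd4*, *Psmd9* and *Psme1*), 12.1% against 3.49%, and TTCNNNGAA in *Psmd2*, 3.03% against 8.47%. CCAAT was found in 39.4% against 37.9% and the GC box GGGCGG in 63.6% against 35.9%, and the TATA box TATAAA in 9.09% against 14.2%. These counts describe letters and were not tested.

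To see how PSCs differed when macrophages were in the co-culture, 3W-PSCs were compared with 2W-PSCs. At the same total number of cells, macrophages took the place of PSCs, PCCs or both. The presence of macrophages and the lower number of the other cells cannot be told apart. Of the 38 genes tested, 5 were lower in 3W-PSCs and 1 was higher (adjusted p under 0.05 in edgeR's quasi-likelihood test). The lower genes were *Psmb6*, *Psma7* and *Psmb1* of the core and *Psmc3* and *Psmd6* of the cap, and the higher gene was the chaperone *Psmd10*. The 6 genes are 15.8% of those tested, against 10.7% of all 11513 genes, and the lower ones are 13.2% against 4.95% and the higher one 2.63% against 5.73%. Log2 fold changes of the 38 genes ran from -0.95 to 0.66 with a median of -0.07 (0.01 when scaled by library totals, -0.22 without replicate 2 and 0.05 without replicate 3 of 2W-PSCs), next to 0.00 over all genes. None was called with an absolute log2 fold change above 1, as 5.84% of all genes were. At an unadjusted p under 0.05 stood 18 of the 38 genes in edgeR, 47.4% against 26.3%. The libraries of the cultures did not overlap for 16 genes (21.3% of all genes), 12 that were lower (31.6%, against 9.71%) and 4 that were higher (10.5%, against 11.6%). Scaling by library totals, which moves the median of all genes by 0.1, gave 4 lower and 2 higher, and the calls over all genes then divided into 774 higher and 405 lower, against 660 and 570. The number of calls depended on single libraries. Without replicate 2 of 2W-PSCs 13 genes were called, 11 lower and 2 higher, while over all genes the calls went from 1230 to 2107. The added calls were *Psmb3*, *Psmb4*, *Psmb5*, *Psmc4*, *Psmc6*, *Psmd11* and *Psmd13*. Without replicate 1 of 2W-PSCs 8 were called. Without replicate 2, 3 or 4 of 3W-PSCs *Psmb6* was the only call, without replicate 1 of 3W-PSCs *Psmb6* and *Psma7* were left, and without replicate 4 of 2W-PSCs *Psmb6* and *Psmd10*. Over all genes the calls fell in these 5 cases too, to between 497 and 750. *Psmb6* was called in all 16 alternative settings, *Psma7* in 11, *Psmb1* and *Psmc3* in 10 and *Psmd6* and *Psmd10* in 9.

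Among the 14 core genes tested, 3 were lower and 0 higher (21.4% called, against 10.7% of all genes). *Psmb6* (ENSMUSG00000018286, chr11:70525367-70527858 of GRCm38), the caspase-like cutting subunit, had 162, 352, 289 and 272 CPM in mono-PSCs, 219.8, 346, 253 and 302 CPM in 2W-PSCs, and 148, 135, 138 and 161 CPM in 3W-PSCs. Every 3W library lay below every 2W library, and mono replicate 1 alone of the mono-PSCs came near them. The log2 fold change was -0.95 (standard error 0.176, adjusted p = 0.00689 in edgeR), with means of 280.3 ± 55.6 CPM for 2W-PSCs and 146 ± 11.5 CPM for 3W-PSCs (SD, n = 4 each). *Psma7* (chr2:180036374-180042433), an outer-ring α subunit and the most abundant of the 40, had 459, 935, 787 and 571 CPM in mono-PSCs, 573, 766, 663 and 655 CPM in 2W-PSCs, and 444, 411, 330.5 and 418 CPM in 3W-PSCs. It fell by 0.73 on the log2 scale (standard error 0.166, adjusted p = 0.0179 in edgeR), without overlap of the libraries. *Psmb1* (chr17:15475021-15499751), a β subunit without a cutting site, had 361, 690.5, 573 and 471 CPM in mono-PSCs, 418, 490.1, 508 and 541 CPM in 2W-PSCs, and 311, 295, 305 and 336 CPM in 3W-PSCs. It fell by 0.65 (standard error 0.151, adjusted p = 0.0197 in edgeR) and again the libraries did not overlap. *Psmb3* and *Psmb4*, further β subunits without a cutting site, were not called (log2 fold changes -0.52 and -0.50, adjusted p = 0.063 and 0.0723 in edgeR), although their libraries did not overlap either. Without 2W replicate 2 both were called (-0.54 and -0.46, adjusted p = 0.0206 and 0.0377 in edgeR). The 14 log2 fold changes of the core ran from -0.95 for *Psmb6* to 0.49 for *Psma5*, with 10 below 0 and a median of -0.41.

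**Figure D1:**
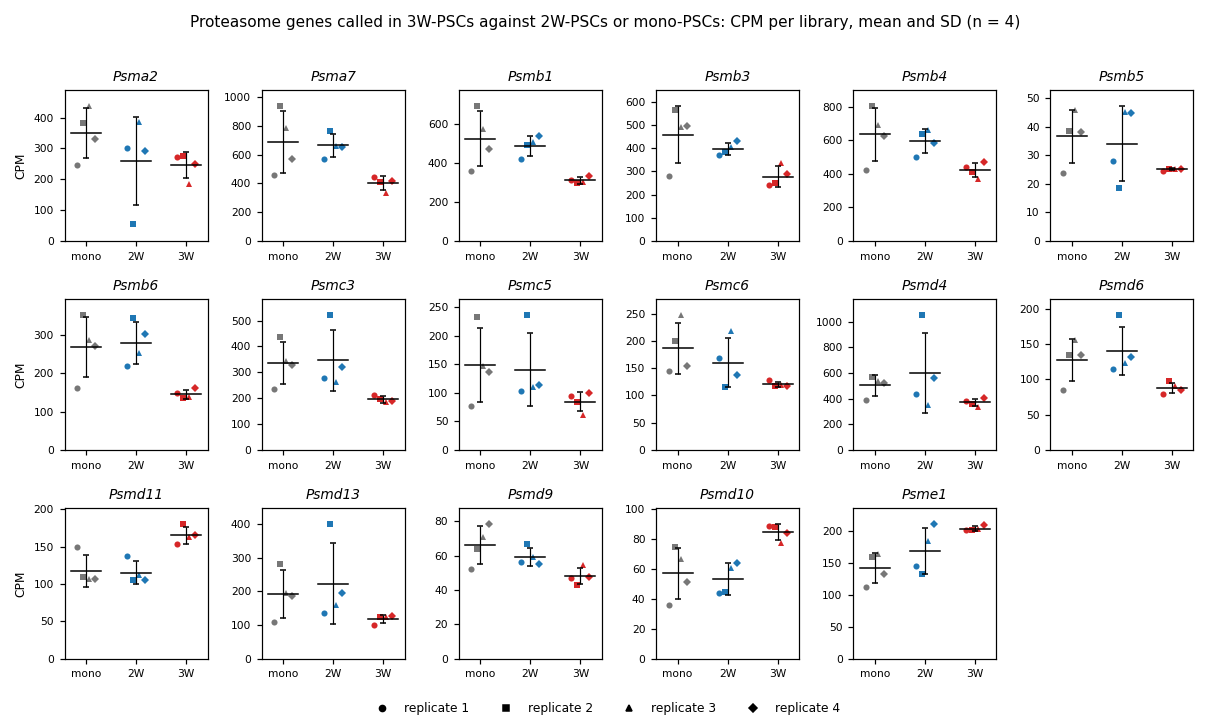
CPM (vertical axis, linear, from 0) in each library of mono-PSCs, 2W-PSCs and 3W-PSCs for the 17 genes called in 3W-PSCs against either culture. Points are libraries, horizontal bars means and whiskers SD (n = 4). The 3W libraries lie mostly low, and high for *Psmd11*, *Psmd10* and *Psme1*. They lie close together for some genes, as for *Psmb6* (146 ± 11.5 CPM), and further apart for others, as for *Psma2* (245 ± 42.3 CPM).

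In the cap, 2 of 17 genes were lower in 3W-PSCs and 0 higher (11.8% called, close to the 10.7% of all genes). *Psmc3* (chr2:91054009-91066369), one of the ring ATPases, had 235, 435, 342 and 329 CPM in mono-PSCs, 279, 519.9, 262 and 322 CPM in 2W-PSCs, and 213, 196, 184 and 189 CPM in 3W-PSCs. It fell by 0.82 on the log2 scale (standard error 0.22, adjusted p = 0.0372 in edgeR). Its exons share 215 bases with *Slc39a13* on the opposite strand, and the sources used here do not state whether counting used the strand. *Psmd6* (chr14:14112174-14120984), a scaffold subunit of the lid, had 84.7, 135, 156 and 135 CPM in mono-PSCs, 114, 191, 124 and 132 CPM in 2W-PSCs, and 79.6, 97.2, 90.6 and 84.6 CPM in 3W-PSCs, a fall by 0.67 (standard error 0.186, adjusted p = 0.0417 in edgeR). In both genes all 3W libraries lay below all 2W libraries, and mono replicate 1 was the lowest of the mono-PSCs. Among the other ATPases, *Psmc4* and *Psmc5* had no overlap between the cultures and were not called, and 5 of the 6 ATPases had a log2 fold change below 0, with a median of -0.62. The lid was divided. *Psmd13* and *Psmd7* lay lower in 3W-PSCs without overlap, and *Psmd11*, which holds lid and base together, lay higher without overlap (0.52, standard error 0.152, adjusted p = 0.0532 in edgeR), none of them called. Without 2W replicate 2, *Psmd11* (0.47, adjusted p = 0.0313 in edgeR), *Psmd13* (-0.47, adjusted p = 0.045), *Psmc4* (-0.47, adjusted p = 0.0442) and *Psmc6* (-0.54, adjusted p = 0.0271) were called. The median of the 8 lid genes was 0.05. For *Psmc1*, *Psmc5*, *Psmd4* and *Psmd13* the 2W mean is raised by replicate 2, as *Psmc1* shows with 449, 1149, 423 and 537 CPM in replicates 1 to 4 of 2W-PSCs. Their log2 fold changes went from -0.67, -0.73, -0.70 and -0.91 to -0.22, -0.37, -0.28 and -0.47 without it.

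*Psmd10* (chrX:140948429-140956728) encodes gankyrin, a chaperone that holds a cap ATPase during assembly and that is also known as an oncoprotein binding RB1. It had 36, 74.7, 66.6 and 51.6 CPM in mono-PSCs, 43.7, 44.9, 60.5 and 64.4 CPM in 2W-PSCs, and 88.9, 88.1, 77.2 and 84.2 CPM in 3W-PSCs. All 4 libraries of 3W-PSCs lay above all 8 others, with a log2 fold change of 0.66 against 2W-PSCs (standard error 0.174, adjusted p = 0.0352 in edgeR). The 2 further cap chaperones were not called and differed from each other in sign, with log2 fold changes of 0.57 for *Psmd5* and -0.31 for *Psmd9*.

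None of the 4 activators was called between 3W-PSCs and 2W-PSCs. *Psme1* had 112, 159, 163 and 133 CPM in mono-PSCs, 145, 133, 185 and 211 CPM in 2W-PSCs, and 202, 202, 203 and 209 CPM in 3W-PSCs. Its 3W libraries differed by less than those of either other culture (204 ± 3.29 CPM, SD, n = 4), and 2W replicate 4 reached their level. The log2 fold change was 0.27, with an adjusted p = 0.347 in edgeR. *Psme2*, its partner in PA28αβ, had 46.6, 79.9, 57.4 and 44.8 CPM in mono-PSCs, 49.6, 13.8, 65.9 and 46.3 CPM in 2W-PSCs, and 72.6, 66.3, 37.4 and 65.4 CPM in 3W-PSCs, with a low value in 2W replicate 2 and the cultures overlapping. Its log2 fold change of 0.45 (adjusted p = 0.488 in edgeR) was 0.16 without that library. *Psme3* had 42.3, 47.6, 41.4 and 50.4 CPM in mono-PSCs, 43.4, 46.2, 37.5 and 52.5 CPM in 2W-PSCs, and 45.6, 53.2, 51.6 and 48.4 CPM in 3W-PSCs. *Psme4* had 106, 65.6, 65.7 and 76.3 CPM in mono-PSCs, 89.3, 85, 64.6 and 72.7 CPM in 2W-PSCs, and 93.9, 93, 83.7 and 98.3 CPM in 3W-PSCs. For both, the 2W and 3W libraries overlapped, and log2 fold changes were 0.14 and 0.24 (adjusted p = 0.627 and 0.364 in edgeR).

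**Figure D2:**
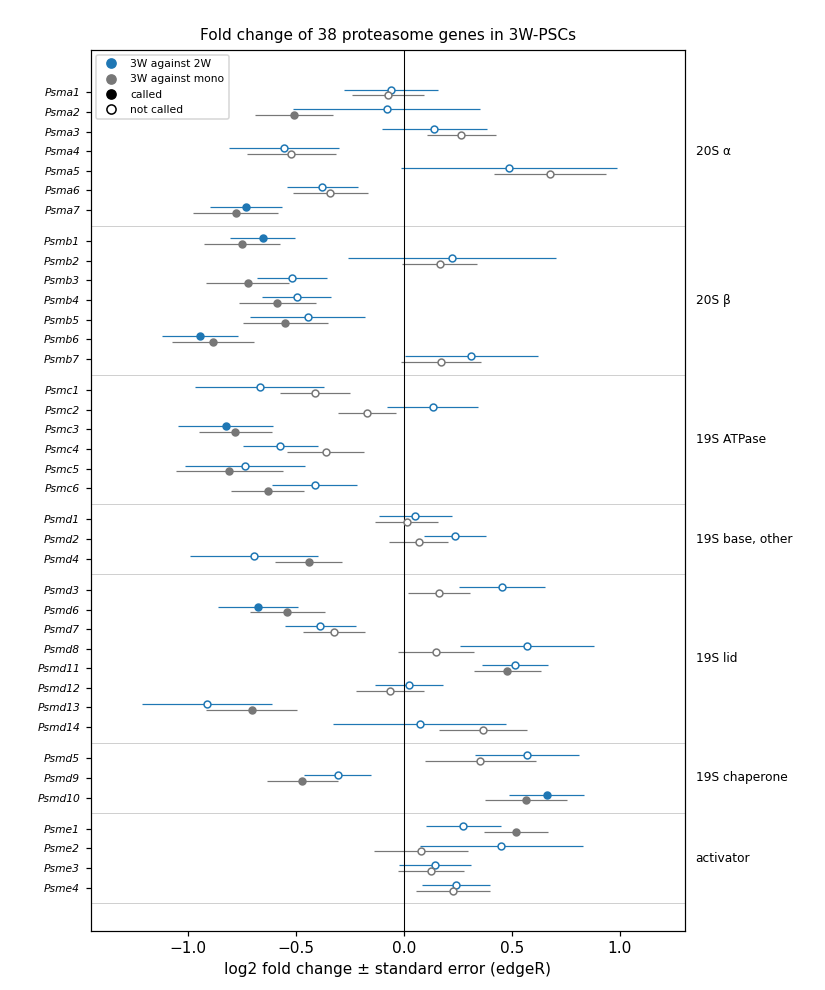
Log2 fold changes (horizontal axis) with standard errors from edgeR for the 38 genes tested, grouped by role, in 3W-PSCs against 2W-PSCs (blue) and against mono-PSCs (grey). Filled points were called at adjusted p under 0.05. The 2 comparisons share the 3W libraries. Filled points lie to the left of 0 in the core and the ATPases and for *Psmd4*, *Psmd6*, *Psmd13* and *Psmd9*. They lie to the right for *Psmd11*, *Psmd10* and *Psme1*, and none passes 1 in size.

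The cutting subunits were set beside the subunits that replace them. *Psmb5*, the chymotrypsin-like subunit, had 23.8, 38.6, 45.9 and 38.3 CPM in mono-PSCs, 27.9, 18.4, 45.1 and 44.7 CPM in 2W-PSCs, and 24.6, 25.3, 25.3 and 25.2 CPM in 3W-PSCs. In 3W-PSCs the 4 libraries differed by less than 1 CPM, and all 2W libraries but replicate 2 lay above them. The difference was not called (-0.45, standard error 0.267, adjusted p = 0.319 in edgeR), but was without that library (-0.65, adjusted p = 0.0276). *Psmb7*, the trypsin-like subunit, had 107, 62.4, 96.3 and 65.1 CPM in mono-PSCs, 86.2, 28.2, 100.2 and 84.8 CPM in 2W-PSCs, and 104, 93.6, 79.1 and 97 CPM in 3W-PSCs, with all cultures overlapping and a log2 fold change of 0.31 (adjusted p = 0.564 in edgeR), or 0.04 without 2W replicate 2. Its exons overlap *Nek6* on the opposite strand by 405 bases. Of the replacements, *Psmb8* and *Psmb9* rose in 3W-PSCs against 2W-PSCs by 2.95 and 3.20 on the log2 scale (adjusted p = 5.71e-05 and 0.000502 in edgeR), and *Psmb10* was not called (0.70, adjusted p = 0.066). *Psmb8* shares 498 exonic bases with *Gm20496* and *Psmb9* shares 212 exonic bases with *Tap1* on the opposite strand.

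Within a library, these levels give a ratio that scaling does not touch. The tags of *Psmb8* per tag of *Psmb5* came to 0.102 ± 0.0612 (SD, n = 4) in mono-PSCs, 0.184 ± 0.0324 in 2W-PSCs and 1.88 ± 0.232 in 3W-PSCs, where *Psmb8* had more counted tags than *Psmb5* in all 4 libraries. *Psmb9* stayed below *Psmb6* in every library, at 0.0117 ± 0.00927, 0.00997 ± 0.00669 and 0.176 ± 0.0274 in the same order. For *Psmb10* and *Psmb7* the ratio was 0.596 ± 0.283, 1.09 ± 0.788 and 1.09 ± 0.163, and the range of 2W-PSCs (0.541 to 2.23) spans that of 3W-PSCs (0.939 to 1.24). Its highest value is that of 2W replicate 2, in which *Psmb7* was low. The other 3 libraries of 2W-PSCs had 0.541, 0.605 and 0.959. The ratios were not tested, and transcripts do not give the makeup of the assembled particle.

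**Figure D3:**
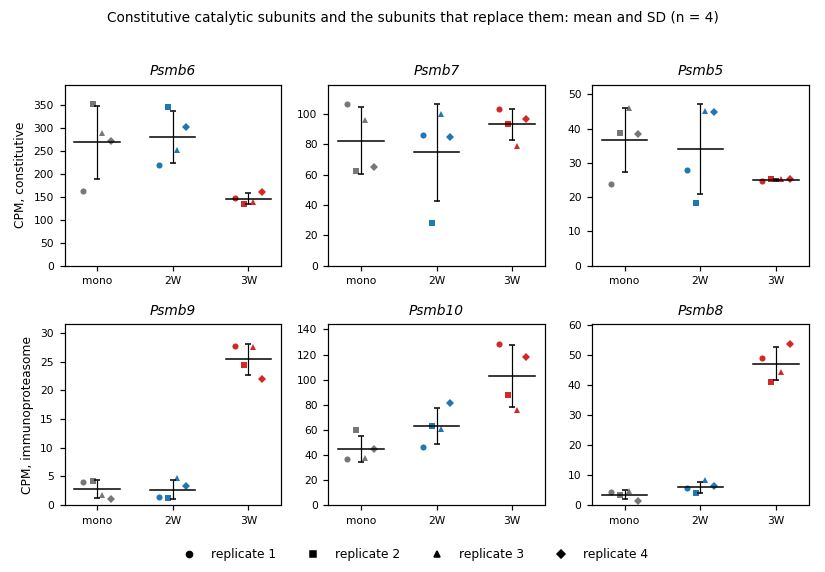
CPM (vertical axes, linear, from 0, a different scale in each panel) of the 3 constitutive cutting subunits (top) and, below each, of the subunit that replaces it, per library with mean and SD (n = 4). *Psmb6* is lower in 3W-PSCs than in 2W-PSCs, *Psmb7* overlaps, and *Psmb8* has more tags than *Psmb5* in 3W-PSCs, with a ratio of 1.88. Reads of *Psmb5* may be lost to sequence that it shares with another gene.

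To see how PSCs differed when only tumour cells were in the co-culture, 2W-PSCs were compared with mono-PSCs. No difference was detectable in these genes. The presence of tumour cells and the lower number of PSCs plated cannot be told apart. Between 2W-PSCs and mono-PSCs edgeR called 0 of 38 genes, with 0 at an unadjusted p under 0.05 and 0 called by DESeq2, against 0.991% of 11199 genes called in edgeR and 7.40% at an unadjusted p under 0.05. Log2 fold changes ran from -0.41 for *Psma2* to 0.32 for *Psmd14*, the deubiquitinase of the lid, with a median of -0.02. For no gene did the libraries separate, which 5.75% of all genes did. Differences of this size could not be told from the spread, and 2W replicate 2 often lay apart, as *Psma2* shows with 303, 54, 386 and 292 CPM in the 4 libraries of 2W-PSCs. Leaving it out gave 0 calls as well.

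Against mono-PSCs, 3W-PSCs showed 14 lower and 3 higher genes of 38. These 17 genes are 44.7%, against 26.4% of 11551 genes, the lower ones 36.8% against 13.0% and the higher ones 7.89% against 13.4%. The median log2 fold change was -0.25, next to 0.01 over all genes, and none was called with an absolute log2 fold change above 1 (11.9% of all genes). At an unadjusted p under 0.05 stood 21 of the 38 genes, against 38.2% of all genes in edgeR. This comparison shares the 3W libraries with that against 2W-PSCs. Libraries did not overlap for 10 genes (26% of all genes), 7 of them lower (18.4%, against 12.1%) and 3 higher (7.89%, against 13.9%). Every one of the 14 lower genes had its lowest mono-PSC value in mono replicate 1, and without that library 24 genes were called, 19 lower and 5 higher, while the calls over all genes went from 3054 to 4266. Without any one of the other libraries the count was 8 to 11, being 8 without mono replicate 2, 9 without mono replicate 3 or 4, 11 without 3W replicate 1, 9 without 3W replicate 2 or 4 and 10 without 3W replicate 3, and over all genes 2228 to 2641. A fit of all 12 libraries called 6 genes, all lower. *Psma7*, *Psmb1*, *Psmb3*, *Psmb6* and *Psmc3* were called in all 16 alternative settings and *Psmc6* in 15.

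In the core, 7 of 14 genes were lower than in mono-PSCs and 0 higher, 5 of them β subunits. *Psmb6*, *Psma7* and *Psmb1*, listed above, had log2 fold changes of -0.88, -0.78 and -0.75 (adjusted p = 0.00226, 0.00683 and 0.00446 in edgeR). *Psmb3* had 282, 564, 493 and 494 CPM in mono-PSCs, 372, 385, 404 and 429 CPM in 2W-PSCs, and 241, 248, 336 and 287 CPM in 3W-PSCs. It fell by 0.72 on the log2 scale (standard error 0.192, adjusted p = 0.01 in edgeR), with 1 mono library inside the 3W range. *Psmb4* had 424, 801, 689 and 623 CPM in mono-PSCs, 501, 635, 659 and 584 CPM in 2W-PSCs, and 439, 412, 371 and 469 CPM in 3W-PSCs, a fall by 0.59 (standard error 0.178, adjusted p = 0.0212 in edgeR). *Psma2*, an α subunit, had 246, 382, 436 and 332 CPM in mono-PSCs, 303, 54, 386 and 292 CPM in 2W-PSCs, and 274, 275, 184 and 249 CPM in 3W-PSCs. It fell by 0.51 (standard error 0.182, adjusted p = 0.0474 in edgeR), but was called in only 5 of 16 settings, and *Psmb5* fell by 0.55 (adjusted p = 0.0472 in edgeR) and was called in 4. *Psma5* had the most positive value of all 38 genes, 0.68, and was not called (adjusted p = 0.0643 in edgeR).

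Of the 17 cap genes, 6 were lower and 1 higher (41.2% called, against 26.4% of all genes). The ATPase *Psmc3* fell by 0.78 (standard error 0.17, adjusted p = 0.0025 in edgeR). The ATPase *Psmc5* had 76.9, 234, 147 and 137 CPM in mono-PSCs, 103, 236, 110.2 and 115 CPM in 2W-PSCs, and 95, 83.9, 61.1 and 99 CPM in 3W-PSCs, a fall by 0.81 (standard error 0.247, adjusted p = 0.0219 in edgeR), and mono replicate 1 lay inside the 3W range. The ATPase *Psmc6* had 145, 200.4, 247 and 153 CPM in mono-PSCs, 169, 116, 219 and 137 CPM in 2W-PSCs, and 128, 118, 119 and 117 CPM in 3W-PSCs. It fell by 0.63 (standard error 0.168, adjusted p = 0.0101 in edgeR), and the 3W libraries lay below all mono libraries. All 6 ATPases had log2 fold changes below 0, from -0.81 to -0.17.

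The ubiquitin receptor *Psmd4* had 385, 568, 536 and 518 CPM in mono-PSCs, 437, 1048, 349 and 561 CPM in 2W-PSCs, and 380.3, 360.3, 336 and 405 CPM in 3W-PSCs. It fell by 0.44 against mono-PSCs (adjusted p = 0.042 in edgeR) and was called in 5 of 16 settings. In the lid, *Psmd6* fell by 0.54 (adjusted p = 0.0287), called in 8. *Psmd13* had 109, 282, 195 and 186 CPM in mono-PSCs, 135, 399, 160.5 and 195 CPM in 2W-PSCs, and 101, 124, 124 and 126 CPM in 3W-PSCs, a fall by 0.71 (standard error 0.211, adjusted p = 0.0199 in edgeR), and its exons overlap *Sirt3* on the opposite strand by 342 bases. The 3W libraries of these genes lay in the lower part of the mono range or under it. *Psmd11* stood against them, with 150.2, 109.8, 106 and 106 CPM in mono-PSCs, 138, 106, 113 and 105 CPM in 2W-PSCs, and 153, 180.1, 162 and 166 CPM in 3W-PSCs. All 3W libraries exceeded all mono libraries, mono replicate 1 only narrowly, and the gene rose by 0.48 (standard error 0.156, adjusted p = 0.0303 in edgeR), called in 9 of 16 settings.

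Of the chaperones, *Psmd10* rose against mono-PSCs by 0.57 (adjusted p = 0.0355 in edgeR) and *Psmd9* fell by 0.47 (adjusted p = 0.0421), called in 10 and 5 of 16 settings. *Psmd9* had 52.2, 63.8, 71.1 and 78.2 CPM in mono-PSCs, 56.5, 66.5, 59.2 and 55.1 CPM in 2W-PSCs, and 47.2, 43.2, 54.3 and 47.5 CPM in 3W-PSCs. It shares 1849 exonic bases with *Gm26745* on the opposite strand, so that this value is uncertain. Of the activators, *Psme1* rose by 0.52 (standard error 0.149, adjusted p = 0.0158 in edgeR), with all 4 libraries of 3W-PSCs above those of mono-PSCs. *Psme2*, *Psme3* and *Psme4* were not called, with log2 fold changes of 0.08, 0.13 and 0.23 (adjusted p = 0.817, 0.582 and 0.348 in edgeR).

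The sums over each complex show its total of tags. The 16 core genes summed to 2780.1, 4713, 4332 and 3546 CPM in mono-PSCs, 3237, 3453, 4091 and 3686 in 2W-PSCs and 2749, 2646, 2524 and 2752 in 3W-PSCs. All 3W libraries lay below all others, and their mean and SD were 2668 ± 107 against 3617 ± 366 in 2W-PSCs and 3843 ± 859 in mono-PSCs (n = 4 each). The 17 cap genes summed to 4404 ± 535, 4468 ± 779.8 and 3748 ± 162 CPM in mono-PSCs, 2W-PSCs and 3W-PSCs, and mono replicate 1 alone of the other libraries lay inside the 3W range. Within the cap, the ATPases came to 1633 ± 439 (2W-PSCs) and 1145 ± 86.6 CPM (3W-PSCs), while the lid came to 1558 ± 85.2 and 1476 ± 77 CPM. 2W replicate 2 had 2288 CPM of ATPase tags, and the other 2W libraries had 1362, 1426 and 1455 CPM, all above the highest of 3W-PSCs (1233.6 CPM). The 4 activators summed to 323 ± 22.2, 335 ± 44.1 and 406 ± 20.6 CPM. Activator tags per core tag were 0.0867 ± 0.0166 in mono-PSCs, 0.0928 ± 0.0113 in 2W-PSCs and 0.152 ± 0.00331 in 3W-PSCs, without overlap between 3W-PSCs and the others. Cap tags per core tag were 1.17 ± 0.13, 1.25 ± 0.268 and 1.41 ± 0.0432, and 2W replicate 2 had the highest ratio of all, 1.63. Sums weigh abundant genes most, and because the genes were chosen as a group they were given no test.

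**Figure D4:**
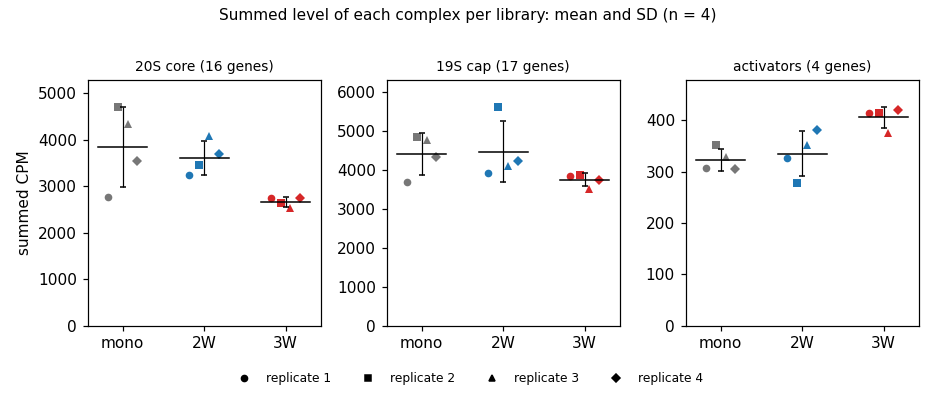
Summed CPM (vertical axes, linear, from 0) of the 20S core genes, the 19S cap genes and the activators in each library, with mean and SD (n = 4). The core is lower in 3W-PSCs (2668 ± 107 CPM) than in every other library, the cap overlaps with mono replicate 1, and of the activators 2W replicate 4 alone reaches into the range of 3W-PSCs.

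Mono replicate 1 and replicate 2 of 2W-PSCs often lay at the edge of their culture, low for some genes and high for others. How often they did so over all genes was not counted. Mono replicate 1 was the lowest of the 4 mono libraries for 24 of the 38 genes and the highest for 7. Its deviation from the other mono-PSCs correlated across the 38 genes with the 3W to 2W log2 fold change (Spearman's rho 0.73), quantities that share no library, and over all 11379 genes rho was 0.49. 2W replicate 2 was the lowest of its culture for 17 genes and the highest for 13. Its deviation correlated with the fold change of 3W-PSCs against mono-PSCs at -0.59 over the 38 genes and at -0.18 over all genes. The deviations of mono replicate 1 and 2W replicate 2 correlated with each other at -0.58 over the 38 genes and -0.24 over all genes. 2W replicate 2 is itself part of the 3W to 2W fold change. Genes are not independent replicates, depth and RNA quality are shared by all genes of a library, and these correlations describe these libraries.

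**Figure D5:**
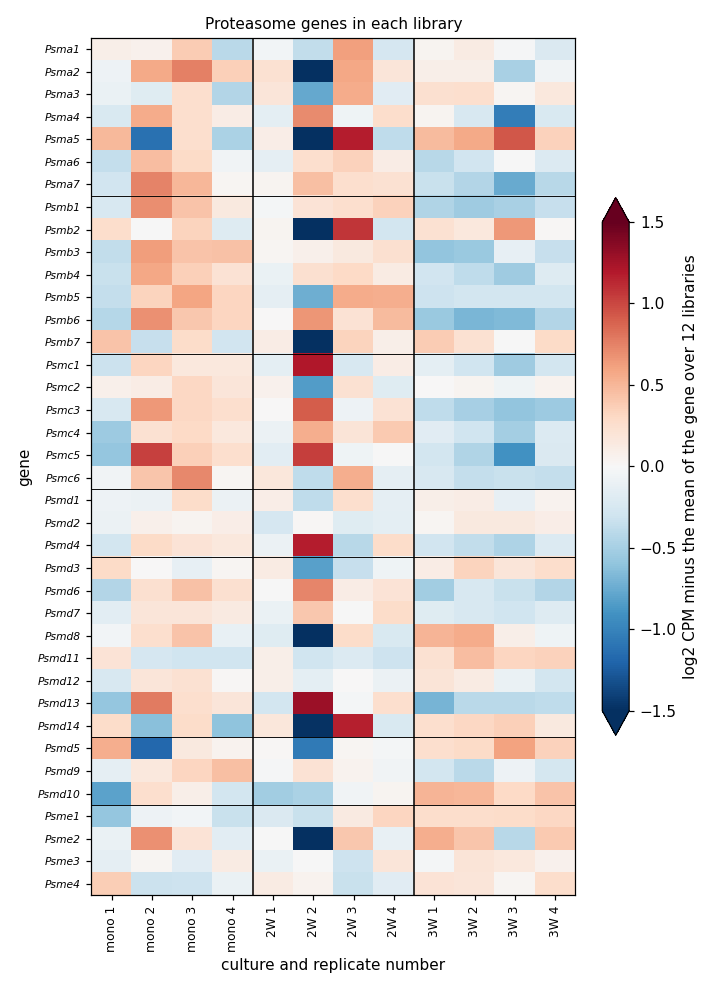
Log2 CPM of the 38 genes (rows, grouped by role) in each of the 12 libraries (columns), minus the mean of the gene over the libraries. Red is above and blue below that mean, and the colour scale ends at 1.5 in either direction. Replicate 2 of 2W-PSCs has the strongest colours, and the 3W columns are blue in most core and ATPase rows and red for *Psmd11*, *Psmd10* and *Psme1*.

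Other genes of the system were counted from a list of 37 (the immunoproteasome, core assembly, cap partners, regulators, ubiquitin and shuttle factors), of which 35 could be tested. Against 2W-PSCs, 2 were higher in 3W-PSCs, *Psmb8* and *Psmb9*, and 0 lower, 5.71% against 10.7% of all genes. Against mono-PSCs, 4 were higher (with *Psmb10* and *Nfe2l2*) and 1 lower (*Txnl1*), 14.3% against 26.4% of all genes. Their median was 0.15 against 2W-PSCs and 0.05 against mono-PSCs. *Pomp*, the chaperone that completes the core, had 226, 452, 378 and 301 CPM in mono-PSCs, 223, 235, 292 and 342 CPM in 2W-PSCs, and 285, 244, 146 and 253 CPM in 3W-PSCs. It was not called in either comparison (-0.24 and -0.55, adjusted p = 0.546 and 0.0699 in edgeR). *Nfe2l2*, a regulator whose element was searched above, rose by 0.53 against mono-PSCs (standard error 0.143, adjusted p = 0.0106 in edgeR), and *Txnl1*, a thioredoxin-like partner of the cap, fell by 0.47 (adjusted p = 0.0497). *Nfe2l2* and *Txnl1* were named after their values were seen. In 2W-PSCs against mono-PSCs, 0 of these 35 genes were called by edgeR.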

How the data were processed

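PSCs were sorted from 3 kinds of culture and their RNA was sequenced, in 12 libraries. With the QuantSeq 3′ FWD kit the authors made the libraries, and they trimmed the single-end reads, aligned them with STAR to GRCm38 and counted them with featureCounts. The deposited values are raw whole-number counts per gene, although normalised reads are named in the methods. Neither molecular identifiers nor the strand setting are stated, so PCR copies count as reads, and floors cover counting error only. Each table column was matched to a sample by its number, and no column was left out.

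From the counts, TMM factors were computed with edgeR 4.0.16 (R 4.3.3) and low genes removed with filterByExpr. Each pair of cultures was fitted alone, as 8 libraries without a block, by glmQLFit and glmQLFTest. The Benjamini-Hochberg adjustment ran over every gene tested, and a gene was called at an adjusted p under 0.05. Standard errors are the log2 fold change over the root of the F statistic. Alternatives were DESeq2 size factors, library totals, testing unfiltered genes or those with 10 counts or more throughout, a joint fit of 12 libraries, a block for the replicate number, leaving out each library, removal of *Gm26924*, *mt-Rnr1* and *mt-Rnr2*, and the Wald test of DESeq2 1.42.0. The scripts were tested on simulated counts.

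The 40 genes, the further gene lists and the tests were chosen with earlier results of these data known. Per-library values are given for every gene called in a comparison, the activators, *Psmb5*, *Psmb6* and *Psmb7*. Levels are given for the 5 highest and 5 lowest genes, and the others by range. Of the further proteasome genes, *Psmb8*, *Psmb9*, *Psmb10*, *Pomp* and those called with an absolute log2 fold change above 1 in 3W-PSCs against 2W-PSCs are given, and 2 more were named after their values were seen. Positions, exon overlaps and shared 75-base windows come from GENCODE release M21, and promoters from RefSeq, both on GRCm38.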

Additional observations from a re-analysis of the deposited data

Results flagged for a closer look

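In 123 groups of 4 libraries (38 proteasome genes and the 3 immunoproteasome genes in 3 cultures), 7 held a library whose gap to the nearest other relative to the range exceeded the critical value of Dixon's test for 4 samples. Chance gives this in about 1 of 20 groups. Replicate 2 of 2W-PSCs accounts for 3 of them. *Psmc1* had 1149 CPM there, with 422.7 to 536.6 CPM in the other 2W-PSCs, *Psmc5* had 236.0 CPM (others 102.7 to 114.7) and *Psmd5* had 15.5 CPM (others 31.6 to 33). Mono replicate 1 accounts for 2, with *Psmd7* at 427.2 CPM below the other mono-PSCs (526.1 to 543.8) and *Psmd11* at 150.2 CPM above them (106.4 to 109.8). *Psmd1* had 394.5 CPM in mono replicate 3, above 306.6 to 309.7 CPM in the others, and *Psmd13* had 100.7 CPM in replicate 1 of 3W-PSCs, below 123.5 to 125.6 CPM.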

How the results depend on the processing

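Each comparison was repeated under 16 alternatives. Of 383 values of single genes in 3W-PSCs against 2W-PSCs, 331 kept direction and side of the threshold, 31 lost a call, 18 gained one and 3 changed sign, and against mono-PSCs 297, 82, 1 and 3 of 383. The causes were not tested. In 3W-PSCs against 2W-PSCs (6 called, 1 higher, 5 lower), library totals and the minimum of 10 counts each gave 2 higher, the fit of 12 libraries 0 higher, and DESeq2 11 calls (2 higher, 9 lower). With a library left out, the calls ranged from 1 to 13, the higher ones from 0 to 2 and the lower ones from 1 to 11. In 3W-PSCs against mono-PSCs (17 called, 3 higher, 14 lower), library totals gave 9 lower and the fit of 12 libraries 6 calls (0 higher, 6 lower). With a library left out, the calls ranged from 8 to 24, the higher ones from 0 to 5 and the lower ones from 6 to 19. The sign changes concern uncalled genes. *Psma2* against 2W-PSCs (-0.08) became 0.15 with the replicate block and lay between -0.42 and 0.17 with a library left out. *Psme2* against mono-PSCs (0.08) lay between -0.025 and 0.28, and *Psmd14* in 2W-PSCs against mono-PSCs (0.32) between -0.24 (without replicate 3 of 2W-PSCs) and 0.60. In that comparison 77 of 608 values changed sign, in 26 genes, and 0 were called. The median over the genes in 3W-PSCs against 2W-PSCs (-0.07) was 0.01 with library totals, which put all genes at 0.10. Summed levels by library totals, an alternative chosen after seeing the data, moved by less than 1 SD in all 9 cases.

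The replicate numbers are not shown to pair the libraries, since the correlations of deviations at the same number were -0.05 to 0.15 (3W-PSCs and 2W-PSCs), 0.10 to 0.34 (2W-PSCs and mono-PSCs) and 0.00 to 0.11 (3W-PSCs and mono-PSCs), not over 0.1 in every pair. Of 8 libraries, 3, 6 and 4 correlated best with their own number. With the replicate block, the calls were 1 (0 higher, 1 lower, *Psmb6*) in 3W-PSCs against 2W-PSCs, 0 in 2W-PSCs against mono-PSCs and 14 in 3W-PSCs against mono-PSCs. At these depths the lowest of the 38 genes had 36 counts in a library, and 33 had at least 100 in every library.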
